A study of Mus musculus with 20 samples.

Results

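The genes described here are the 47 protein-coding genes of ribosome biogenesis and RNA polymerase I transcription named by a fixed list of symbols, measured in sorted AgRP neurons of the mouse hypothalamus. Each symbol was looked up in the deposited table of raw read counts, which holds 23129 gene names, and all 47 were found there. The rule itself uses no measured value. By role the list holds 5 RNA polymerase I subunits, 6 RNA polymerase I initiation factors, 7 nucleolar chaperones and multifunctional factors, 4 proteins of box C/D and U3 snoRNPs, 3 proteins of box H/ACA snoRNPs, 11 small subunit assembly factors and 11 large subunit assembly factors.

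The 20 libraries fall into 4 groups of 5, wild type or Phf6 conditional knockout (cKO), each fed or fasted. All mice were C57BL/6, 25 to 30 days old, and carried AgRP-Cre/+ and Ai9/+, so that Cre recombinase made under the Agrp gene switched on the red reporter tdTomato. The cKO mice carried Phf6 flox/y in addition, and the wild-type mice were their littermates. Fasted mice had their food taken away at 5 pm on the previous day and had water only, and fed mice had food. For each library 1000 red cells were sorted from a hypothalamic tissue punch, and RNA of the sorted pool was amplified and sequenced. The design asks how fasting changes RNA levels in these neurons and whether loss of Phf6 alters that response. Cre made under the Agrp gene marks and deletes in the cells that used that gene at any time, so a sorted pool need not be of 1 kind, and nothing in the labels says that each library came from its own mouse. P-values therefore measure only the spread between these libraries, which may in part be technical. In sorted pools, fewer cells with a transcript and less of it per cell cannot be told apart.

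Ribosomes are built in the nucleolus. RNA polymerase I, recruited to the ribosomal DNA by the upstream binding factor (the product of Ubtf) and the SL1 complex, makes 1 long precursor RNA, which snoRNPs modify and the small and large subunit assembly factors fold and cut. In most cells this pathway uses much of the energy spent on growth and is turned down when nutrients are scarce. AgRP neurons make agouti-related peptide and neuropeptide Y, drive feeding and fire more when an animal is hungry. PHF6 is a zinc finger protein of chromatin and the nucleolus that has been reported to bind the upstream binding factor. The counts of the table are of messenger RNAs of the protein machinery, and ribosomal RNA itself was not analysed here.

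Library depth was 10604977 to 13573524 counts in fed groups and 8494499 to 10000278 in fasted groups. Phf6, the deleted gene, was 3.91-fold lower in cKO than in wild type when fed and 2.09-fold lower when fasted, and in wild type it was 2.16-fold lower after fasting than when fed. The summed level of 10 AgRP neuron markers was 21100 to 31800 counts per 1000000 mapped to genes (CPM) in fed libraries and 51000 to 85000 CPM in fasted ones, so the labelled cell type was present throughout. Among markers of other cells, the 8 astrocyte genes summed to 10.8 to 18.1 CPM in fed and 33.9 to 65.1 CPM in fasted wild type, and to 29.5 to 61.6 CPM in fed and 43.5 to 97.1 CPM in fasted cKO. Of the 6 that could be tested, 2 rose with fasting in each genotype and 1 was higher in fed cKO. The 7 oligodendrocyte genes summed to 82.6 to 105 CPM when fed and 49.2 to 73.6 CPM when fasted, and the 10 genes of other hypothalamic neurons to 140 to 517 CPM when fed and 379 to 1060 CPM when fasted. The 4 Pomc neuron genes summed to 313 to 471 CPM in the other 3 groups and 440 to 1100 CPM in fasted cKO. Of 4 oligodendrocyte genes tested, 3 fell with fasting in wild type and 2 in cKO and 1 was higher in fed cKO, and both Pomc neuron genes tested rose with fasting in cKO and were higher in fasted cKO. The sums were 27.4 to 60.9 CPM for 8 genes of tanycytes and ependyma, 24.8 to 42.2 CPM for 8 of microglia and macrophages, and at most 18.1 CPM for 6 of endothelium, 9.25 CPM for 7 of mural cells and fibroblasts and 1.64 CPM for 5 of oligodendrocyte precursors. The 4 haemoglobin genes, Tmem119 of microglia and Nr5a1 of the ventromedial nucleus had no count in any library. Several of these sums move with fasting and, in fed mice, with genotype. The AgRP sum was 21100 to 23200 CPM in fed wild type and 27100 to 31800 CPM in fed cKO, with 5 of 10 genes higher in fed cKO and none lower, and the microglia sum was 24.8 to 31.0 and 34.3 to 42.2 CPM. The sum of other hypothalamic neurons was 311 to 517 CPM in fed wild type and 140 to 370 CPM in fed cKO, with 2 of 6 tested genes lower. The tanycyte and ependyma sum was 46.7 to 60.9 and 34.6 to 47.4 CPM, with 1 of 4 lower. For all these sums, their part in the results on the 47 genes was not tested.

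Fasted wild-type replicates 1 and 2 stood apart from replicates 3 to 5 in these genes. Over the 47 genes the deviations from the group mean had a mean correlation of 0.39 within these sets of replicates and -0.66 between them, which is a description of 5 libraries. Over all tested genes these values were 0.043 and -0.44, so the split was not confined to the 47 genes. No label marks the sets, which were chosen from these same libraries. For 25 of the 47 genes both replicates 1 and 2 were above, or both below, all of replicates 3 to 5, and the same split was seen for 7 genes among fed wild-type libraries, and among cKO libraries for 12 when fed and 15 when fasted. The share of all tested genes with this split is not given here. Among the genes that separated the sets most, Npm3 was 3.65-fold higher in replicates 1 and 2, Polr1a 1.78-fold higher and Heatr1 1.69-fold higher. Nop2 was 2.27-fold lower in them and Rrp1 1.7-fold lower. The calls on fasting in wild type that were lost without either set are given first. With fasted replicates 1 and 2 of both genotypes left out, the falls of Fbl (-0.214, adjusted p = 0.0722), Rrs1 (-0.185, adjusted p = 0.249) and Rrp1 (-0.056, adjusted p = 0.377) no longer passed. With fasted replicates 3 to 5 left out, the rises of Nob1 (0.078, adjusted p = 0.555), Utp3 (0.05, adjusted p = 0.623), Rrp1b (0.058, adjusted p = 0.776), Tsr1 (0.27, adjusted p = 0.0779) and Nop56 (0.113, adjusted p = 0.142) no longer passed. The falls of Nop16 (-0.095, adjusted p = 0.221) and Taf1a (-0.142, adjusted p = 0.414) were lost there too. Other calls were gained. With fasted replicates 1 and 2 left out, Nolc1 and Polr1e rose and Heatr1 and Polr1a fell. With fasted replicates 3 to 5 left out, Heatr1, Ebna1bp2, Npm3 and Polr1a rose and Nolc1, Nop2 and Pes1 fell. Nolc1, Heatr1 and Polr1a were thus called in opposite directions.

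Fed wild-type levels per length differed widely between the 47 genes. Length is that of the longest coding transcript (8202 bases for Ncl), and the order of the genes depends on that choice. Rrp1, a processing factor of the large subunit, stood at 306 CPM per kb of transcript and Npm1, the histone and ribosomal protein chaperone nucleophosmin, at 286 CPM per kb. Nop56, Nop16, Polr1d and Ncl followed at 94.9, 82.3, 75.9 and 55.0 CPM per kb. At the low end were Polr1a and Ddx21 with 2.41 each, Heatr1 with 2.38, Polr1b with 2.27, Rrp12 with 2.03, Utp20 with 1.54, Npm3 with 1.36 and Taf1c with 1.30 CPM per kb. The lowest count of any of the 47 genes in a library was 5 reads, for Npm3, and 42 of the 47 had at least 50 reads in every library. All 47 passed the filter on low counts.

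Promoter windows from RefSeq (GRCm38.p6), each 250 bases before to 50 bases after an annotated start, were matched to 41 of the 47 genes, which have 51 windows. Below are the windows of Gnl3 and Taf1d, the genes whose rise with fasting in wild type was largest, and of Polr1e and Rrp9, whose response to fasting differed between genotypes. Capitals mark GGGCGG (SP1) in Gnl3, Taf1d and Polr1e, CCGGAAG (ETS) in Polr1e and CCAAT in Rrp9, each searched on both strands.
Gnl3 (chr14:31019082-31019381, minus strand): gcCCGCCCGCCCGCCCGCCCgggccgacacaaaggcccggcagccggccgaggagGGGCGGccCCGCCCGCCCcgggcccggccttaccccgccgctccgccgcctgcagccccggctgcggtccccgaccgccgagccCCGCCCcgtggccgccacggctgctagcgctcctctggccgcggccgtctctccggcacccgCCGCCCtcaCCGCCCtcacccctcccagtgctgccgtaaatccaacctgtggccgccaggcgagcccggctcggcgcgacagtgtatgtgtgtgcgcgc
Taf1d (chr9:15305964-15306263, plus strand): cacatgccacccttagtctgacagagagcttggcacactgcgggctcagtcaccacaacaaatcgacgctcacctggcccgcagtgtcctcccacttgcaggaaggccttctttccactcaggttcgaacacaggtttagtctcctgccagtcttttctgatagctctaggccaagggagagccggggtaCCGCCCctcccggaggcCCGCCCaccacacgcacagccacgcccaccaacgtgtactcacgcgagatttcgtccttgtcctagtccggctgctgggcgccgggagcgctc
Polr1e (chr4:45018359-45018658, plus strand): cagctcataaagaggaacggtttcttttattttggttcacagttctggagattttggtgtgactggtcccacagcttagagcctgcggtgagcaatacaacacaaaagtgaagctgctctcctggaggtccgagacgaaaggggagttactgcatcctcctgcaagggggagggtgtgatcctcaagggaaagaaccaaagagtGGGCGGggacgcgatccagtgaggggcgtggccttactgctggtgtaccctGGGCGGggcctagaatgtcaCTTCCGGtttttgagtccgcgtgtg
Rrp9 (chr9:106477059-106477358, plus strand): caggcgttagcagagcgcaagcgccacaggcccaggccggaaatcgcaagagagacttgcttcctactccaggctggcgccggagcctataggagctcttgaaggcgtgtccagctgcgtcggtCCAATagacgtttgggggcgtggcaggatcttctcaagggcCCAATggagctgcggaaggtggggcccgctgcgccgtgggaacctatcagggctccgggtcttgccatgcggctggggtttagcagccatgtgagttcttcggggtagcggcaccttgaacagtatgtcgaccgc
Over the 51 windows, GGGCGG or its reverse complement was found in 64.7%, against 35.7% of all 32851 windows of the same length. CCGGAAG was found in 33.3% against 8.86% and the E-box CACGTG in 13.7% against 7.15%. CCAAT was found in 29.4% against 37.4%, and the core motif of NRF1 in 0 windows against 0.971%. No motif contains another, and runs such as the one in Gnl3 hold overlapping copies of GGGCGG. Such matches describe letters in the window and say nothing of binding.

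In wild-type AgRP neurons more of these genes rose than fell on fasting. Of the 47, 21 rose, 11 fell and 15 did not pass the test (edgeR's quasi-likelihood test with Benjamini-Hochberg adjustment over 13237 genes, adjusted p under 0.05). The background was wide, since 29.6% of all tested genes rose and 31.3% fell (60.9% in all). All changes and differences of responses given with ± are log2 fold changes with 1 SE, and all levels are CPM. The median log2 fold change was 0.14 over the 47 genes and -0.03 over all genes. The largest rises were in the nucleolar GTPase gene Gnl3, in Taf1d of SL1, in Nhp2 and in Npm1, and the largest falls in Ubtf, Bop1 and Rrp9.

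In Phf6 cKO neurons 27 of the 47 genes rose on fasting, 4 fell and 16 did not pass the test, where 26% of all tested genes rose and 27% fell (53.1% in all). The median was 0.28 over the 47 genes and -0.03 over all genes. The 4 that fell were Rrp1, Fbl, Rrs1 and Pes1. Between genotypes, 19 genes rose in both and 3 fell in both (Fbl, Rrs1 and Rrp1), while 6 that fell in wild type did not pass in cKO and 6 that rose in cKO did not pass in wild type. Taf1a and Nop16 fell in wild type and rose in cKO. Groups of libraries did not overlap for 22 genes in wild type (45% of all genes did not overlap) and for 23 in cKO (39.6% of all genes).

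**Figure D1:**
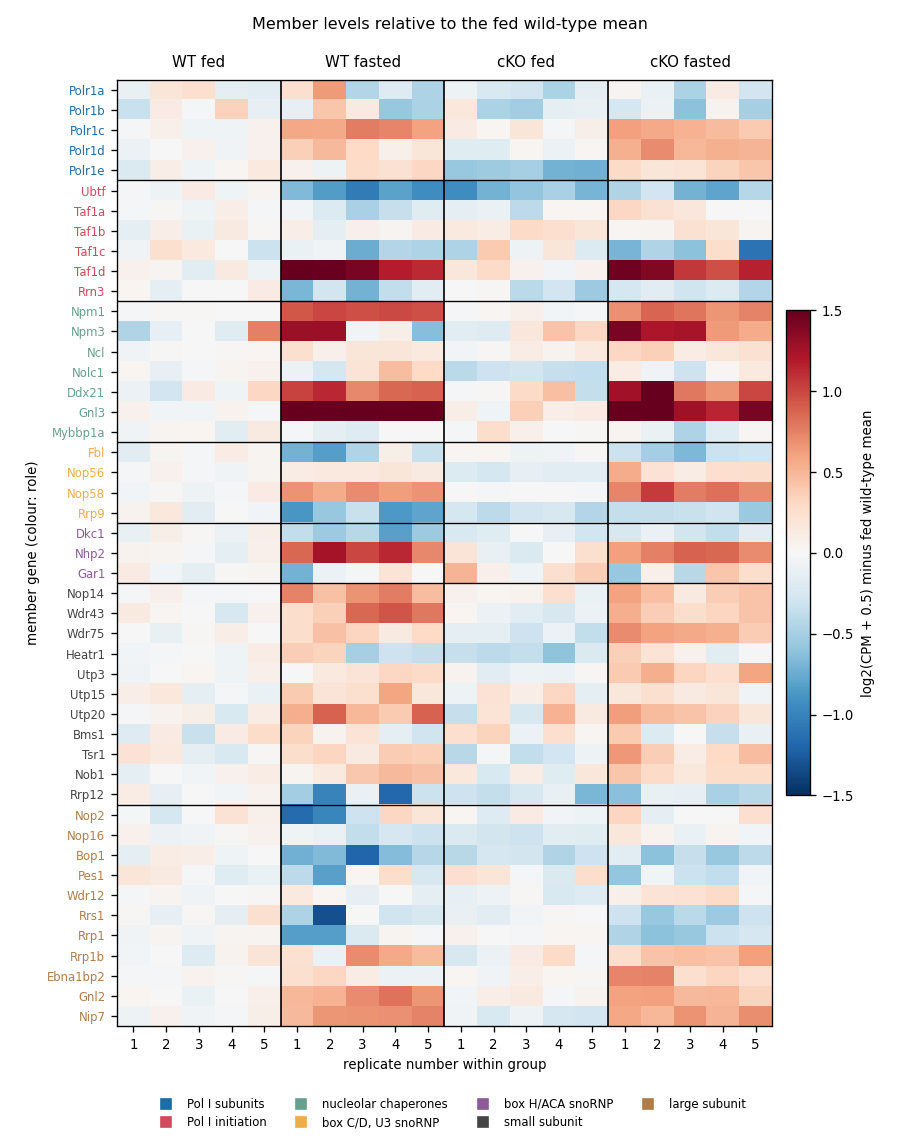
Level of each of the 47 genes (rows, coloured by role) in each of the 20 libraries (columns, replicates 1 to 5 of each group), as log2(CPM + 0.5) minus the mean of the fed wild-type libraries, with the colour scale ending at 1.5 on either side. Gnl3, Taf1d, Npm1, Ddx21, Nhp2 and Nop58 are red in all 10 fasted libraries, Ubtf is blue in all libraries outside fed wild type, and fasted wild-type replicates 1 and 2 differ from 3 to 5 in Npm3, Heatr1, Nop2 and Rrp1.

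**Figure D2:**
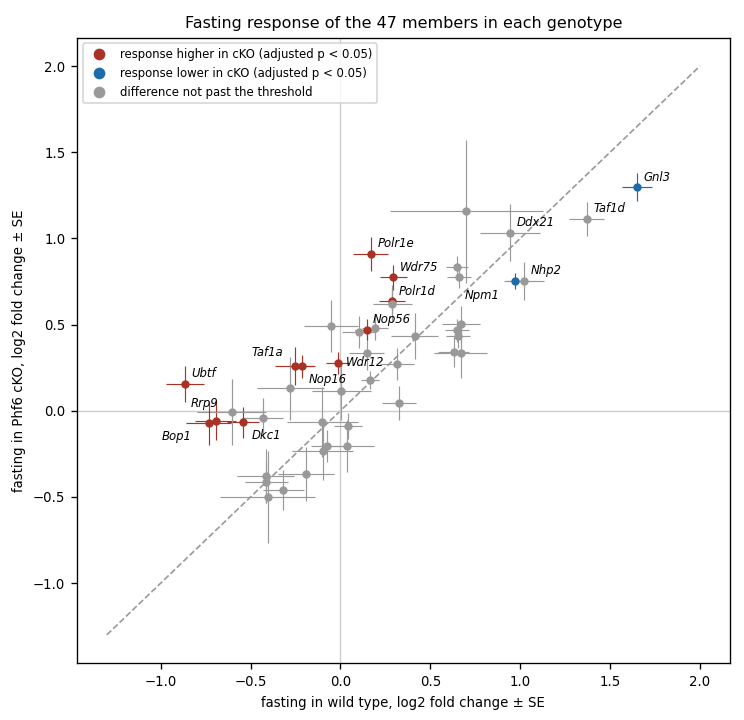
Log2 fold change on fasting in wild type (horizontal axis) and in Phf6 cKO (vertical axis) for the 47 genes, with bars of 1 SE and a dashed line of equal response. Of the 13 coloured genes, whose response differed between genotypes at an adjusted p under 0.05, 11 lie above the line and Gnl3 and Npm1 lie below it.

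Among RNA polymerase I subunits, 2 of 5 rose with fasting in wild type and 3 of 5 in cKO, and none fell. The shares of all tested genes were 29.6% rising and 31.3% falling in wild type, and 26% and 27% in cKO. Polr1a, at chr6:71909053-71984935 on GRCm38, encodes the largest, catalytic subunit. Polr1a in wild type was at 20.3, 25.1, 26.3, 19.9 and 19.5 CPM in fed replicates 1 to 5 and at 26.3, 34.5, 16.2, 19.1 and 15.9 CPM in fasted ones. Polr1a in cKO was at 20.9, 18.8, 17.9, 15.7 and 19.97 CPM when fed and at 22.8, 20.6, 15.8, 24.1 and 17.9 CPM when fasted. The groups overlapped throughout, and the highest value was that of fasted wild-type replicate 2. No comparison of Polr1a passed the test, and the 95% interval of its log2 fold change on fasting in wild type ran from -0.32 to 0.33. With fasted replicates 1 and 2 of both genotypes left out, it was -0.38 with an adjusted p of 0.0199, and with fasted replicates 3 to 5 left out it was 0.43 with an adjusted p of 0.011, so the sets of replicates gave calls of opposite sign. Polr1b, the other core catalytic subunit, was at 5.68 to 12.1 CPM over the 20 libraries and passed no comparison.

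Polr1c and Polr1d encode subunits that RNA polymerase I shares with RNA polymerase III. Polr1c rose in both genotypes (0.65 ± 0.068, adjusted p = 2.39e-09 in wild type and 0.43 ± 0.068, adjusted p = 4.41e-06 in cKO). Wild-type libraries held Polr1d at 85.4, 91.03, 94.6, 87.8 and 95.3 CPM when fed and 116, 128, 112, 95.95 and 103 CPM when fasted. In cKO, Polr1d was at 80.2, 80.2, 92.7, 85.5 and 92.8 CPM when fed and 132, 149, 128, 132 and 129 CPM when fasted. All fasted libraries were above all fed libraries, and the lowest fasted cKO library, at 128.4 CPM, was just above the highest fasted wild-type one, at 127.7 CPM. Polr1d rose with fasting by 0.29 ± 0.072, adjusted p = 0.00101 in wild type and 0.63 ± 0.072, adjusted p = 2.13e-08 in cKO. In fasted mice it was higher in cKO than in wild type (0.27 ± 0.072, adjusted p = 0.00759). With GC and length offsets the rise in wild type had an adjusted p of 0.627.

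Polr1e, at chr4:45018583-45036565, encodes a subunit that helps bind the polymerase to initiation factors. Levels of Polr1e in wild type were 21.8, 27.1, 24.2, 25.8 and 27.96 CPM (fed) and 26.4, 23.9, 30.8, 29.6 and 31.4 CPM (fasted). Levels of Polr1e in cKO were 16.8, 17.3, 17.7, 15.2 and 15.2 CPM (fed) and 30.9, 28.7, 29.2, 31.9 and 34.02 CPM (fasted). The fed cKO libraries lay below every other library, and the fasted cKO libraries lay above the fed wild-type ones and overlapped with fasted wild type. Polr1e fell in fed cKO against fed wild type (-0.62 ± 0.099, adjusted p = 7.6e-05) and rose with fasting in cKO (0.91 ± 0.10, adjusted p = 1.48e-08). Its change with fasting in wild type was 0.17 ± 0.098, adjusted p = 0.143, and the responses differed by 0.74 ± 0.14, adjusted p = 0.000492. Polr1e was called as rising in wild type with GC and length offsets, with or without the replicate block. The same call was made with fasted replicates 1 and 2 left out. Over all alternatives and single-library omissions tried, the fall in fed cKO, the rise in cKO and the difference of responses held.

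Initiation factors moved in different directions. In wild type 1 of 6 rose with fasting and 3 fell (Ubtf, Rrn3 and Taf1a), and in cKO 2 rose and none fell. Among all tested genes 29.6% rose and 31.3% fell in wild type, and 26% rose and 27% fell in cKO. Ubtf, at chr11:102304560-102319742, encodes the upstream binding factor that coats active ribosomal DNA. Ubtf in wild type was at 42.6, 41.1, 47.1, 41.4 and 44.3 CPM in fed replicates 1 to 5 and at 27.1, 23.9, 20.7, 24.7 and 22.5 CPM in fasted ones. Ubtf in cKO was at 22.3, 26.2, 28.4, 30.8 and 26.4 CPM when fed and at 31.5, 35.3, 26.2, 24.7 and 31.99 CPM when fasted. Fed wild type was the highest of the 4 groups and overlapped with none of them, while fasted wild type and both cKO groups lay in a common lower range. Fasting lowered Ubtf in wild type (-0.86 ± 0.10, adjusted p = 3.81e-08), and its change in cKO did not pass the test (0.16 ± 0.10, adjusted p = 0.211). Ubtf was called as rising in cKO with GC and length offsets, with or without the replicate block. The same call was made with fasted replicates 3 to 5 left out. Against wild type it was lower in fed cKO (-0.69 ± 0.10, adjusted p = 2.22e-05) and higher in fasted cKO (0.33 ± 0.11, adjusted p = 0.0275). The responses to fasting differed by 1.02 ± 0.15, adjusted p = 1.87e-05, the largest difference among the 47 genes. The higher level in fasted cKO was lost without any 1 of 5 libraries (fasted wild-type replicates 3 and 5 and fasted cKO replicates 1, 2 and 5, adjusted p up to 0.0909). It was also lost with fasted replicates 1 and 2 left out (adjusted p = 0.0929) and with 3 to 5 left out (adjusted p = 0.0699). With the fasted groups fitted alone its adjusted p was 0.101. The 3 other calls of Ubtf held in all settings tried.

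Taf1a, Taf1b, Taf1c and Taf1d encode subunits of SL1, which binds the ribosomal DNA promoter. Wild-type libraries held Taf1d at 35.3, 34.9, 30.1, 37.0 and 32.1 CPM when fed and 99.8, 95.3, 91.2, 77.2 and 74.2 CPM when fasted. The cKO libraries had Taf1d at 37.96, 41.4, 35.3, 32.9 and 35.3 CPM when fed and 93.4, 89.04, 71.3, 66.7 and 75.8 CPM when fasted. Every fasted library was above every fed one in both genotypes. Taf1d rose by 1.37 ± 0.098, adjusted p = 1.83e-12 in wild type and 1.11 ± 0.098, adjusted p = 2.21e-10 in cKO. Of its exon bases 13.6% overlap a gene on the opposite strand, and the libraries do not keep strand. Levels of Taf1a in wild type were 19.1, 19.8, 18.6, 20.9 and 19.04 CPM (fed) and 18.9, 16.8, 13.8, 15.2 and 17.1 CPM (fasted). Levels of Taf1a in cKO were 17.6, 18.2, 14.7, 19.9 and 19.8 CPM (fed) and 24.3, 22.9, 22.02, 19.6 and 19.3 CPM (fasted). All 5 fasted cKO libraries were above all 5 fasted wild-type libraries, and the fed groups overlapped. Taf1a was higher in fasted cKO than in fasted wild type (0.40 ± 0.11, adjusted p = 0.0122). Its fall in wild type (-0.25 ± 0.11, adjusted p = 0.0494) and rise in cKO (0.26 ± 0.11, adjusted p = 0.0486) each failed the test without any 1 of 11 libraries, with adjusted p up to 0.141 and 0.152. The difference between these responses was 0.51 ± 0.16, adjusted p = 0.0225. Taf1b, at 39.07 to 53.04 CPM over the libraries, and Taf1c, at 1.67 to 5.61 CPM, passed no comparison, and 16.73% of the exon bases of Taf1c overlap Dnaaf1 on the opposite strand.

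Rrn3 encodes the factor TIF-IA, which carries RNA polymerase I to the promoter and through which growth signals act. Rrn3 in wild type was at 42.6, 37.8, 41.6, 41.8 and 45.6 CPM in fed replicates 1 to 5 and at 25.8, 34.5, 25.4, 32.2 and 37.4 CPM in fasted ones. Rrn3 in cKO was at 41.98, 42.4, 31.5, 34.2 and 28.5 CPM when fed and at 34.8, 37.6, 33.95, 36.3 and 30.7 CPM when fasted. In wild type the fasted libraries were all below the fed ones, and in cKO the groups overlapped. Rrn3 fell with fasting in wild type (-0.43 ± 0.11, adjusted p = 0.00175), and its change in cKO was -0.04 ± 0.11, adjusted p = 0.782. The difference between the responses did not pass the test (0.39 ± 0.16, adjusted p = 0.0943).

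Nucleolar chaperones and multifunctional factors had the highest medians on fasting, 0.70 in wild type and 0.75 in cKO, with 4 and 6 of 7 members rising and none falling. The background was 29.6% of all tested genes rising and 31.3% falling in wild type, and 26% and 27% in cKO. The wild-type median was the value of Npm3, a gene of low counts that did not pass the test there. Gnl3, at chr14:31012433-31019152, encodes nucleostemin, a GTPase of the nucleolus that is abundant in dividing progenitor cells. Wild-type libraries held Gnl3 at 56.8, 52.8, 52.9, 56.5 and 53.5 CPM when fed and 168, 178, 182, 164 and 162 CPM when fasted. Gnl3 stood in cKO at 58.6, 52.4, 69.8, 58.5 and 59.1 CPM when fed and 164, 171, 132, 121 and 147 CPM when fasted. The lowest fasted library was far above the highest fed one in each genotype. Gnl3 rose by 1.65 ± 0.083, adjusted p = 1.27e-15 in wild type, a 3.13-fold change, and by 1.30 ± 0.083, adjusted p = 4.5e-13 in cKO. The difference between the responses was -0.35 ± 0.12, adjusted p = 0.035, and it was lost without any 1 of 7 libraries (fed wild-type replicates 2, 3 and 5, fed cKO replicate 3, fasted wild-type replicate 3 and fasted cKO replicates 3 and 4, adjusted p up to 0.0875).

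Npm1 lies at chr11:33152287-33163206 and was the most abundant of these chaperones. Levels of Npm1 in wild type were 462, 474, 473, 465 and 465 CPM (fed) and 890.2, 936, 911, 933 and 916 CPM (fasted). Levels of Npm1 in cKO were 458, 476, 495, 455 and 460.2 CPM (fed) and 751, 857, 815, 741 and 786 CPM (fasted). Fasted wild type was above fasted cKO with no overlap, and both were above the fed groups, which overlapped with each other. Npm1 rose by 0.97 ± 0.046, adjusted p = 3.1e-16 in wild type and 0.75 ± 0.046, adjusted p = 1.8e-13 in cKO, and the difference was -0.22 ± 0.064, adjusted p = 0.0178. In fasted mice it was the 1 gene of the 47 that was lower in cKO (-0.22 ± 0.045, adjusted p = 0.0013). With fasted replicates 3 to 5 left out, that call had an adjusted p of 0.0543.

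Ddx21 encodes an RNA helicase that binds pre-ribosomal RNA. Ddx21 in wild type was at 10.6, 9.19, 12.3, 10.8 and 14.1 CPM in fed replicates 1 to 5 and at 23.3, 25.3, 18.9, 20.8 and 21.2 CPM in fasted ones. Ddx21 in cKO was at 11.1, 11.4, 13.9, 15.6 and 8.67 CPM when fed and at 27.6, 35.3, 19.9, 18.2 and 23.04 CPM when fasted. The fed and fasted ranges did not overlap in either genotype. Ddx21 rose by 0.94 ± 0.17, adjusted p = 1.93e-05 in wild type and 1.03 ± 0.17, adjusted p = 6.77e-06 in cKO. Ncl encodes nucleolin, a major RNA-binding protein of the nucleolus. Wild-type libraries held Ncl at 433, 456, 449, 456 and 460.2 CPM when fed and 533, 474, 509.8, 510.0 and 500.0 CPM when fasted. In cKO, Ncl was at 437, 456, 486, 467 and 499.6 CPM when fed and 558, 578, 486, 506 and 527 CPM when fasted. The fasted libraries of wild type lay above the fed ones by a small margin, and those of cKO overlapped with the fed ones. Ncl rose by 0.16 ± 0.052, adjusted p = 0.00783 in wild type and 0.18 ± 0.052, adjusted p = 0.00502 in cKO, and with GC and length offsets these had adjusted p of 0.059 and 0.401.

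Nolc1 encodes a chaperone of snoRNPs. Levels of Nolc1 in wild type were 80.3, 71.9, 77.5, 80.9 and 82.3 CPM (fed) and 73.8, 65.5, 90.2, 108 and 96.5 CPM (fasted). Levels of Nolc1 in cKO were 59.2, 63.01, 64.7, 61.9 and 60.5 CPM (fed) and 84.9, 75.8, 63.4, 80.01 and 87.2 CPM (fasted). Fed cKO libraries were below all fed wild-type ones, and the fasted groups were spread. Nolc1 fell in fed cKO (-0.34 ± 0.098, adjusted p = 0.0242) and rose with fasting in cKO (0.34 ± 0.100, adjusted p = 0.00541). The fall was lost without any 1 of fed wild-type replicates 1, 4 and 5 and fed cKO replicates 1 and 5, with adjusted p up to 0.0589. Npm3, a relative of nucleophosmin, was near the lower limit of these libraries, where 3 counts correspond to 0.221 to 0.353 CPM. Npm3 in wild type was at 0.690, 1.005, 1.14, 0.935 and 2.25 CPM in fed replicates 1 to 5 and at 3.51, 3.49, 1.08, 1.24 and 0.552 CPM in fasted ones. Npm3 in cKO was at 0.960, 0.922, 1.33, 1.70 and 1.52 CPM when fed and at 3.88, 3.29, 3.36, 2.04 and 1.91 CPM when fasted. Fasted wild-type replicates 1 and 2 were above all fed libraries, and replicates 3 to 5 were at 0.552 to 1.24 CPM. Npm3 rose with fasting in cKO (1.16 ± 0.41, adjusted p = 0.0205), a call lost without fed cKO replicate 1 or 2 or fasted cKO replicate 1 (adjusted p up to 0.0559). Its change in wild type was 0.70 ± 0.43, adjusted p = 0.159. Mybbp1a, a nucleolar protein that binds Myb, was at 27.8 to 46.3 CPM and passed no comparison.

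**Figure D3:**
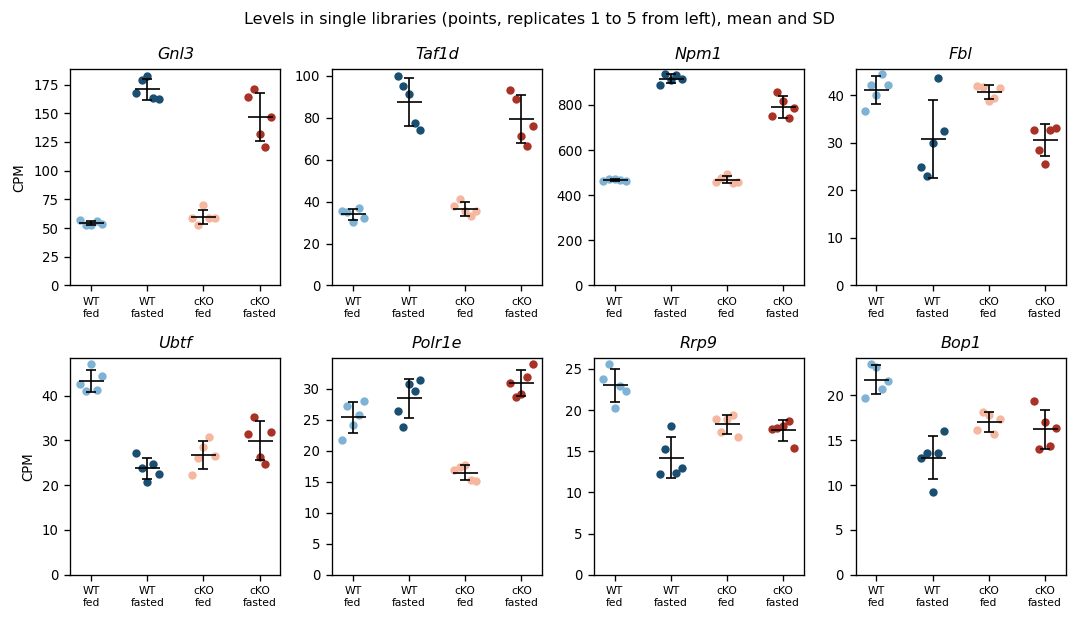
CPM of 8 genes in each library, with points for replicates 1 to 5 from left to right, a line at the group mean and bars of 1 SD (n = 5), on axes that start at 0. Gnl3, Taf1d and Npm1 are above all fed libraries in both fasted groups, Fbl spreads from 23.0 to 43.6 CPM in fasted wild type, and Ubtf, Polr1e, Rrp9 and Bop1 show different patterns of the 4 groups.

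On fasting in wild type the snoRNP proteins split within each complex, while in cKO no box H/ACA protein fell. Fbl encodes fibrillarin, the methyltransferase of box C/D snoRNPs. Wild-type libraries held Fbl at 36.7, 42.1, 40.1, 44.5 and 42.1 CPM when fed and 24.9, 22.99, 29.9, 43.6 and 32.5 CPM when fasted. The cKO libraries had Fbl at 41.9, 41.8, 38.9, 39.4 and 41.6 CPM when fed and 32.6, 28.6, 25.6, 32.7 and 33.2 CPM when fasted. In cKO the fasted libraries were all below the fed ones, and in wild type fasted replicate 4 lay within the fed range. Fbl fell, with log2 fold changes of -0.41 ± 0.12, adjusted p = 0.00356 in wild type and -0.41 ± 0.12, adjusted p = 0.00424 in cKO. Without fasted replicates 1 and 2 the fall in wild type had an adjusted p of 0.0722. Nop58, a core protein of the same particle, moved the other way. Levels of Nop58 in wild type were 127, 132, 123, 129.5 and 142 CPM (fed) and 208, 192, 213, 202 and 208 CPM (fasted). Levels of Nop58 in cKO were 131, 128, 130.0, 131 and 128 CPM (fed) and 217, 271, 222, 231 and 215 CPM (fasted). Fasted libraries were above fed ones in both genotypes without overlap. Nop58 rose by 0.65 ± 0.060, adjusted p = 3.28e-10 in wild type and 0.83 ± 0.060, adjusted p = 4.77e-12 in cKO. Nop56, its partner, rose by 0.47 ± 0.062, adjusted p = 3.27e-07 in cKO, while the rise in wild type (0.14 ± 0.062, adjusted p = 0.0452) was lost in 15 of 20 single-library omissions, with adjusted p up to 0.101. The responses of Nop56 differed by 0.33 ± 0.088, adjusted p = 0.0101.

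Rrp9 encodes a protein of the U3 snoRNP, which guides the first cuts of the precursor. Rrp9 in wild type was at 23.8, 25.6, 20.3, 22.98 and 22.3 CPM in fed replicates 1 to 5 and at 12.3, 15.2, 18.1, 12.4 and 13.02 CPM in fasted ones. Rrp9 in cKO was at 18.9, 17.3, 18.9, 19.4 and 16.8 CPM when fed and at 17.8, 17.8, 18.1, 18.6 and 15.4 CPM when fasted. Fasted wild-type libraries were below all fed wild-type ones, and the cKO groups overlapped. Rrp9 fell with fasting in wild type (-0.69 ± 0.11, adjusted p = 6.38e-06), its change in cKO was -0.06 ± 0.11, adjusted p = 0.701, and the responses differed by 0.64 ± 0.16, adjusted p = 0.00629.

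Of the box H/ACA proteins, Dkc1 encodes dyskerin, the pseudouridine synthase, and lies on the X chromosome (75095854-75109777). Wild-type libraries held Dkc1 at 38.3, 43.9, 41.9, 38.6 and 43.9 CPM when fed and 31.9, 28.03, 30.7, 23.3 and 28.03 CPM when fasted. Dkc1 stood in cKO at 35.1, 36.4, 41.1, 37.8 and 33.7 CPM when fed and 34.8, 38.6, 34.1, 31.8 and 36.5 CPM when fasted. Fasted wild type was below fed wild type without overlap, and the cKO groups overlapped with each other. Dkc1 fell with fasting in wild type (-0.54 ± 0.090, adjusted p = 7.34e-06), its change in cKO was -0.07 ± 0.089, adjusted p = 0.547, and the responses differed by 0.47 ± 0.13, adjusted p = 0.00932. Dkc1 was higher in fasted cKO than in fasted wild type (0.31 ± 0.092, adjusted p = 0.0181), a call lost without fasted wild-type replicate 4 (adjusted p 0.0669). Nhp2, a structural partner of dyskerin, rose. Levels of Nhp2 in wild type were 18.4, 18.1, 17.3, 15.97 and 18.6 CPM (fed) and 32.5, 42.5, 35.8, 39.2 and 29.5 CPM (fasted). Levels of Nhp2 in cKO were 20.2, 16.2, 15.1, 17.6 and 21.01 CPM (fed) and 27.4, 30.2, 33.02, 32.3 and 29.2 CPM (fasted). The lowest fasted value was above the highest fed value in each genotype. Nhp2 rose by 1.02 ± 0.11, adjusted p = 4.74e-09 in wild type and 0.76 ± 0.11, adjusted p = 1.52e-06 in cKO. Gar1, of the same particle, was at 9.94 to 23.6 CPM and passed no comparison.

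Small subunit assembly factors mostly rose. In wild type 8 of 11 rose and Rrp12 fell, and in cKO 7 rose and none fell, with medians of 0.29 and 0.34. The shares over all tested genes were 29.6% rising and 31.3% falling in wild type, and 26% and 27% in cKO. Wdr43, Wdr75, Heatr1 and Utp15 belong to the subcomplex that also aids transcription of the precursor. Wdr43 in wild type was at 52.6, 48.8, 47.9, 40.4 and 49.8 CPM in fed replicates 1 to 5 and at 57.5, 61.2, 87.1, 92.2 and 82.6 CPM in fasted ones. Wdr43 in cKO was at 48.5, 44.7, 42.7, 40.3 and 44.9 CPM when fed and at 70.1, 61.6, 57.2, 59.6 and 64.5 CPM when fasted. Fasted libraries were above fed ones in both genotypes, and in wild type replicates 1 and 2 were the lowest fasted libraries. Wdr43 rose by 0.67 ± 0.10, adjusted p = 3.04e-06 in wild type and 0.50 ± 0.11, adjusted p = 0.000228 in cKO. Wild-type libraries held Wdr75 at 64.3, 59.8, 65.4, 69.7 and 65.2 CPM when fed and 77.97, 88.2, 81.02, 70.95 and 79.7 CPM when fasted. In cKO, Wdr75 was at 58.9, 58.5, 52.3, 60.9 and 50.1 CPM when fed and 106, 99.03, 95.9, 93.6 and 84.8 CPM when fasted. Every fasted library was above every fed one, and the 4 highest libraries were of fasted cKO. Wdr75 rose by 0.29 ± 0.074, adjusted p = 0.00114 in wild type and 0.77 ± 0.074, adjusted p = 1.1e-09 in cKO, and the responses differed by 0.48 ± 0.10, adjusted p = 0.00194. In fasted mice Wdr75 was higher in cKO (0.27 ± 0.074, adjusted p = 0.0104).

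Rrp12, a late export and maturation factor, was the small subunit factor that fell. Levels of Rrp12 in wild type were 9.53, 8.04, 8.78, 8.49 and 9.16 CPM (fed) and 5.96, 4.13, 8.13, 3.60 and 6.95 CPM (fasted). Levels of Rrp12 in cKO were 6.98, 6.74, 7.36, 8.10 and 5.27 CPM (fed) and 5.50, 8.09, 7.995, 6.13 and 6.45 CPM (fasted). The 2 wild-type groups met at replicate 3 of the fasted mice, and the cKO groups overlapped. Rrp12 fell with fasting in wild type (-0.61 ± 0.19, adjusted p = 0.0075), and with GC and length offsets the adjusted p was 0.0963. Its change in cKO was -0.01 ± 0.19, adjusted p = 0.974. The other members of this role that rose in both genotypes were Nop14 (0.63 ± 0.087, adjusted p = 4e-07 in wild type), Utp3 (0.19 ± 0.074, adjusted p = 0.0262), Tsr1 (0.29 ± 0.11, adjusted p = 0.0223) and Nob1, the nuclease that trims the small subunit RNA (0.31 ± 0.093, adjusted p = 0.0048). With fasted replicates 3 to 5 left out the rise of Nob1 was 0.078 (adjusted p = 0.555). In wild type the rise of Utp3 was lost without fed replicate 1 or 4 or fasted replicate 4 or 5 (adjusted p up to 0.0783), and was 0.023 with GC and length offsets (adjusted p = 0.802) and 0.05 with fasted replicates 3 to 5 left out (adjusted p = 0.623), and that of Tsr1 without fed replicate 3 or 4 (up to 0.0762). In cKO that of Nob1 was lost without fed cKO replicate 2 or 4 (up to 0.0638). Tsr1 shares 32.32% of its exon bases with Srr on the opposite strand, so its reads are uncertain. Utp15 and Utp20 rose in wild type and did not pass in cKO, and Heatr1 rose in cKO (0.49 ± 0.15, adjusted p = 0.00742) and did not pass in wild type. In wild type Heatr1 was called as falling with fasted replicates 1 and 2 left out and as rising with 3 to 5 left out. For these 3 genes the difference between the responses did not pass the test, and Bms1, at 12.3 to 20.7 CPM, passed no comparison.

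Large subunit assembly factors divided between rises and falls. In wild type 3 of 11 rose (Gnl2, Nip7 and Rrp1b) and 4 fell (Nop16, Bop1, Rrs1 and Rrp1), with a median of -0.19. In cKO 6 rose and 3 fell, with a median of 0.26. The wild-type counts are near the shares of all tested genes, of which 29.6% rose and 31.3% fell (26% and 27% in cKO). Bop1, Pes1 and Wdr12 encode the PeBoW complex, which matures the large subunit RNA. Bop1 in wild type was at 19.7, 23.5, 23.2, 20.7 and 21.6 CPM in fed replicates 1 to 5 and at 12.97, 13.6, 9.22, 13.6 and 16.0 CPM in fasted ones. Bop1 in cKO was at 16.1, 18.2, 17.9, 15.7 and 17.4 CPM when fed and at 19.4, 14.04, 17.03, 14.4 and 16.4 CPM when fasted. Fasted wild type was below fed wild type, fed cKO was below fed wild type, and the cKO groups overlapped. Bop1 fell with fasting in wild type (-0.73 ± 0.12, adjusted p = 1.08e-05), its change in cKO was -0.07 ± 0.12, adjusted p = 0.655, and the responses differed by 0.66 ± 0.18, adjusted p = 0.00917. Wild-type libraries held Pes1 at 20.8, 20.1, 17.9, 16.1 and 17.03 CPM when fed and 13.8, 10.2, 18.8, 22.1 and 15.4 CPM when fasted. The cKO libraries had Pes1 at 21.8, 20.8, 17.9, 15.7 and 22.1 CPM when fed and 12.1, 17.7, 14.6, 14.1 and 17.8 CPM when fasted. The fasted wild-type libraries alone spread from 10.2 to 22.1 CPM. Pes1 fell in cKO (-0.37 ± 0.16, adjusted p = 0.0494), a call lost in 13 of 20 single-library omissions (adjusted p up to 0.145), and its change in wild type was -0.19 ± 0.15, adjusted p = 0.291. Wdr12 rose in cKO (0.28 ± 0.066, adjusted p = 0.000856), which with GC and length offsets had an adjusted p of 0.128.

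Rrp1, at chr10:78400384-78413043, was the most abundant of the 47 genes per length in fed wild type. Levels of Rrp1 in wild type were 582, 624, 582, 622 and 623 CPM (fed) and 342, 343, 523, 626 and 599 CPM (fasted). Levels of Rrp1 in cKO were 636, 610.2, 601, 621 and 618 CPM (fed) and 442, 396, 409.7, 486 and 511 CPM (fasted). Fasted wild-type replicates 1 and 2 were far below the fed range, while replicate 3 was somewhat below it and replicates 4 and 5 were within it or just above. All fasted cKO libraries were below all fed ones. Rrp1 fell, with log2 fold changes of -0.32 ± 0.12, adjusted p = 0.0184 in wild type and -0.46 ± 0.12, adjusted p = 0.00135 in cKO. The wild-type call was lost without fasted replicate 1 or 2 (adjusted p up to 0.0716) and had an adjusted p of 0.377 without both. Rrs1 helps bring the 5S particle into the large subunit. Rrs1 in wild type was at 15.5, 13.9, 15.4, 13.8 and 18.1 CPM in fed replicates 1 to 5 and at 10.99, 5.81, 15.2, 12.3 and 12.9 CPM in fasted ones. Rrs1 in cKO was at 14.1, 13.5, 14.8, 15.4 and 15.3 CPM when fed and at 12.2, 10.1, 11.5, 10.3 and 12.2 CPM when fasted. Fasted wild-type replicate 2 was the lowest library. Rrs1 fell, with log2 fold changes of -0.42 ± 0.16, adjusted p = 0.024 in wild type and -0.38 ± 0.16, adjusted p = 0.047 in cKO. The first call was lost without fed replicate 5 or fasted replicate 2 (adjusted p up to 0.0871), and the second in 15 of 20 omissions (up to 0.0983).

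Nop16 and Ebna1bp2 encode nucleolar proteins of large subunit precursors. Wild-type libraries held Nop16 at 151, 136, 139, 146 and 151 CPM when fed and 138, 135, 112, 121 and 116 CPM when fasted. Nop16 stood in cKO at 124, 119, 117, 129 and 127 CPM when fed and 162, 149.6, 134, 149 and 140.1 CPM when fasted. The wild-type groups overlapped at 1 fasted library, fed cKO was below fed wild type, and fasted cKO was above fed cKO. Nop16 fell with fasting in wild type (-0.21 ± 0.065, adjusted p = 0.00564; -0.095, adjusted p = 0.221 with fasted replicates 3 to 5 left out), rose in cKO (0.26 ± 0.065, adjusted p = 0.00148), and the responses differed by 0.47 ± 0.092, adjusted p = 0.000657. Levels of Ebna1bp2 in wild type were 72.3, 72.4, 76.4, 74.1 and 72.1 CPM (fed) and 86.6, 91.1, 79.1, 69.3 and 69.1 CPM (fasted). Levels of Ebna1bp2 in cKO were 74.7, 70.9, 78.96, 74.99 and 74.3 CPM (fed) and 122, 123, 87.2, 92.3 and 87.4 CPM (fasted). Fasted cKO replicates 1 and 2 were above all other libraries, and replicates 3 to 5 were above the fed groups. Ebna1bp2 rose with fasting in cKO (0.45 ± 0.092, adjusted p = 0.000148) and was higher in fasted cKO than in fasted wild type (0.38 ± 0.093, adjusted p = 0.00506). Its change in wild type was 0.10 ± 0.093, adjusted p = 0.342. Nip7, which acts late in large subunit maturation, and Gnl2, a GTPase of the same pathway, rose in both genotypes (0.66 ± 0.068, adjusted p = 2.17e-09 and 0.65 ± 0.067, adjusted p = 2.43e-09 in wild type). Rrp1b also rose in both (0.41 ± 0.13, adjusted p = 0.00873 in wild type), with an adjusted p of 0.776 there when fasted replicates 3 to 5 were left out. Nop2, the RNA methyltransferase, passed no comparison and ran from 11.6 to 32.9 CPM in fasted wild type.

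In fed mice 4 of the 47 genes were lower in cKO than in wild type and none was higher, where 3.81% of all tested genes fell and 5.87% rose (9.68% in all). The 4 were Ubtf, Polr1e, Nolc1 and Nop16, and for each the fed cKO libraries lay below every fed wild-type library. Nop16 had a log2 fold change of -0.23 ± 0.065, adjusted p = 0.0204, a call lost without fed wild-type replicate 1 or 5 or fed cKO replicate 2 or 3 (adjusted p up to 0.0566). The median over the 47 genes was -0.02, and over all genes 0.01. At an unadjusted p under 0.05, 12 of the 47 were lower and 1 was higher (10.3% and 13% of all genes). DESeq2 at an adjusted p under 0.05 called 8 lower and 0 higher (5.02% and 7.26% of all genes). When the fed groups were fitted alone, 10 genes fell (Bop1, Heatr1, Nip7, Nop56, Rrp9 and Wdr75 in addition) and Taf1b rose, where 11.1% of all genes fell and 11.7% rose. For 8 genes the fed groups did not overlap, against 14.5% of all genes.

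In fasted mice 9 of the 47 genes were higher in cKO and 1, Npm1, was lower, where 11.5% of all tested genes rose and 8.84% fell (20.3% in all). The median was 0.07 over the 47 genes and -0.01 over all genes. Beside Polr1d, Ubtf, Taf1a, Dkc1, Wdr75 and Ebna1bp2, the rises were in Nop16 (0.24 ± 0.066, adjusted p = 0.0102), Utp3 (0.24 ± 0.075, adjusted p = 0.0225) and Nop58 (0.18 ± 0.060, adjusted p = 0.0373). Leaving out 1 of fasted wild-type replicates 2, 4 and 5 and fasted cKO replicates 2 and 4 lost Nop58 (adjusted p up to 0.152), and leaving out fasted wild-type replicate 1 or fasted cKO replicate 2 or 5 lost Utp3 (up to 0.0761). Without fasted replicates 3 to 5, Polr1d (adjusted p = 0.111), Ubtf (0.0699), Taf1a (0.116), Dkc1 (0.144) and Nop16 (0.0921) no longer passed. Without fasted replicates 1 and 2, Ubtf (0.0929), Nop58 (0.242) and Utp3 (0.26) no longer passed. When the fasted groups were fitted alone, 0 of the 47 genes rose and Npm1 fell with edgeR, where 5.93% of all genes rose and 5.04% fell. At an unadjusted p under 0.05 the counts in that fit were 9 and 4 (13.8% and 13.3% of all genes). DESeq2 over all 20 libraries called 9 higher and 4 lower (12.5% and 10.6% of all genes). With upper-quartile normalization 7 of the 47 rose and 4 fell (9.31% and 11.9% of all genes), and the share of rises among all called genes was 43.9% in place of 56.5%. For 4 of the 47 genes (8.96% of all genes) the fasted groups did not overlap.

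**Figure D4:**
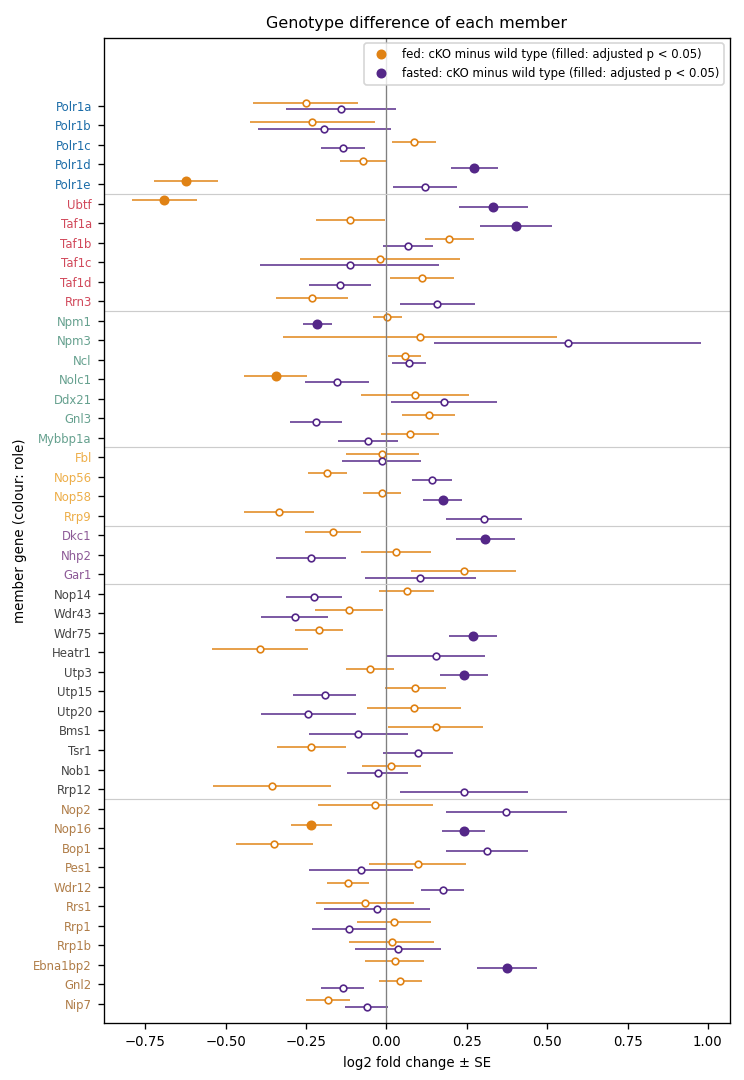
Log2 fold change of Phf6 cKO against wild type for each of the 47 genes in fed (orange) and fasted (purple) mice, with bars of 1 SE and filled points for an adjusted p under 0.05. The 4 filled orange points, of Polr1e, Ubtf, Nolc1 and Nop16, lie below 0, and 9 of the 10 filled purple points lie above it.

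The response to fasting was higher in cKO than in wild type for 11 of the 47 genes and lower for 2, where 8.87% and 8.44% of all tested genes were so called (17.3% in all). The median difference was 0.09 over the 47 genes and -0.03 over all genes. By role the 11 were 2 polymerase subunits (Polr1d and Polr1e), 2 initiation factors (Ubtf and Taf1a), Nop56, Rrp9, Dkc1, Wdr75, and 3 large subunit factors (Nop16, Bop1 and Wdr12). In Ubtf, Rrp9, Dkc1 and Bop1 the wild type fell and the cKO did not pass the test, and in Polr1e and Wdr12 the cKO rose and the wild type did not pass. Under some other settings Ubtf was also called as rising in cKO, and Polr1e in wild type. Wdr12 differed by 0.29 ± 0.093, adjusted p = 0.0298, a call lost without fed wild-type replicate 2, fed cKO replicate 4 or 5, fasted wild-type replicate 3 or fasted cKO replicate 4 (adjusted p up to 0.0604). Each of these differences shares both fed groups with the comparison in fed mice, which enters it with the opposite sign, so the tests are not independent. Ubtf, Polr1e and Nop16 passed both tests, and their fed levels were 43.3, 25.4 and 144.5 CPM in wild type and 26.8, 16.5 and 122.9 CPM in cKO (means of 5). In the promoter windows, CACGTG was found for 0 of the 10 of these 11 genes that have a window and for 7 of the 31 others, and CCAAT for 6 and 7, which is a description of few genes.

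With fasted replicates 1 and 2 of both genotypes left out, which leaves 3 fasted libraries a group, the response was higher in cKO for 13 genes and lower for 7, where 13.3% and 13.2% of all genes were so called, and in fasted mice 7 genes were higher and 8 lower (14.2% and 12.6% of all genes). With fasted replicates 3 to 5 left out, these counts were 14 and 0 (8.7% and 7.2% of all genes), and 8 and 0 (7.3% and 4.81% of all genes). Ubtf, Polr1e, Bop1, Dkc1, Ebna1bp2, Nop16, Nop56, Rrp9 and Wdr75 had a higher response in cKO under both. Gnl3, Npm1, Gnl2, Nop14, Polr1c and Wdr43 had a lower response under the first and did not pass under the second. Rrp1 was called lower under the first and higher under the second.

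Base composition moved with the response to fasting across the 47 genes. The log2 fold change on fasting and the GC content of the longest coding transcript had a Pearson correlation of -0.52 in wild type and -0.50 in cKO over the 47 genes, against -0.10 and -0.19 over 12713 genes. These are descriptions, since genes of the same libraries are not independent. Of the 24 genes at or under the median GC content of 50.3%, 15 rose and 3 fell in wild type, and of the 23 above it 6 rose and 8 fell. In cKO the counts were 17 and 1, and 10 and 3. Whatever their GC content, 29.6% of all tested genes rose and 31.3% fell in wild type, and 26% and 27% in cKO. The wild-type counts for the 23 genes above the median are near those shares. The shares of all tested genes above and below the median GC content are not given here. With per-library offsets for GC content and length, 19 of the 47 genes rose and 8 fell in wild type (28.7% and 30.6% of all genes). In cKO 24 rose and 3 fell (24.0% and 25.9% of all genes), and the medians over the 47 genes were 0.077 and 0.319. In wild type the calls lost with these offsets were the rises of Polr1d, Ncl, Nop56 and Utp3 and the falls of Rrp12, Rrs1 and Rrp1. In cKO those of Taf1a, Npm3, Ncl, Wdr12, Pes1 and Rrs1 were lost, in fasted mice those of Nop58 and Dkc1, and for the interaction that of Wdr12. The calls on fasting gained with these offsets were rises of Nolc1 and Polr1e in wild type. In cKO they were a rise of Ubtf and a fall of Taf1b.

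**Figure D5:**
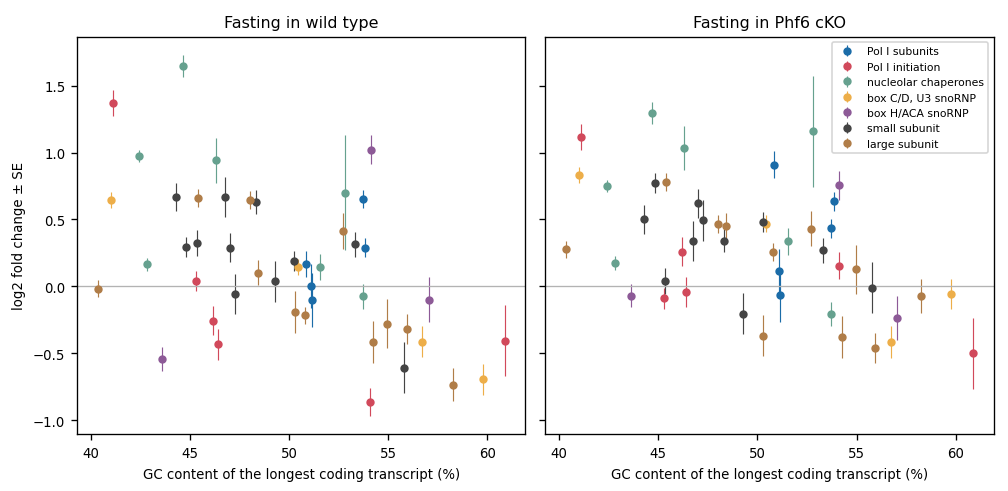
Log2 fold change on fasting, with bars of 1 SE, against the GC content of the longest coding transcript for the 47 genes, in wild type (left) and Phf6 cKO (right), coloured by role. In both panels Gnl3 and Taf1d, 2 of the 3 largest rises, are at a GC content of 44.7% and 41.1%. The other is Nhp2 in wild type (54.1%) and Npm3 in cKO (52.8%), both above the median of 50.3%. The genes richest in GC, Taf1c, Rrp9 and Bop1, lie below 0, and of these only Rrp9 and Bop1 in wild type passed the test.

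Some of the 47 genes carry snoRNA genes in their introns, so that 1 transcript gives both a nucleolar protein and guide RNAs. By the annotation these are Taf1d with 8 snoRNA genes, Nop56 with 5, Nop58 with 4, Ncl, Gnl3 and Wdr43 with 3 each, Tsr1 with 2 and Dkc1 with 1. On fasting in wild type 7 of these 8 host genes rose and Dkc1 fell, with a median of 0.47, and of the 39 others 14 rose and 10 fell, with a median of 0.04. In cKO 7 of the 8 rose and none fell (median 0.56), and of the others 20 rose and 4 fell (median 0.26). Over all tested genes 29.6% rose and 31.3% fell in wild type, and 26% rose and 27% fell in cKO. The GC content of host genes, lowest in Nop58 (41.0%) and Taf1d (41.1%), was at most 50.5%.

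Further genes of the pathway, from lists written from general knowledge, were counted in the same fit. Of all tested genes, 29.6% rose and 31.3% fell in wild type, and 26% rose and 27% fell in cKO. Counts near these shares are no more than the background. Of 10 other RNA polymerase I genes tested, 6 rose and 2 fell in wild type and 8 rose and 1 fell in cKO. Twistnb, a subunit gene, rose by 0.82 ± 0.081 in wild type, and Top1, the topoisomerase that relaxes ribosomal DNA during transcription, had a response 1.22 ± 0.17 higher in cKO. Of 12 regulators of ribosomal DNA chromatin, 2 rose and 5 fell in wild type, led by Baz1b (-1.32 ± 0.078) and Dnmt1 (-1.09 ± 0.10), and their responses were higher in cKO by 0.63 ± 0.11 and 0.69 ± 0.14. Of 9 other snoRNP genes 5 rose and 3 fell in wild type and 6 rose and 1 fell in cKO. Ruvbl1, which encodes an ATPase of snoRNP assembly, fell by 0.70 on the log2 scale in wild type and differed in its response by 0.62 ± 0.099.

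Of 43 other small subunit factors, 15 rose and 10 fell in wild type, 19 rose and 5 fell in cKO, and 12 had a higher and 0 a lower response in cKO. Of all tested genes, the shares in the same order were 29.6% and 31.3%, 26% and 27%, and 8.87% and 8.44%. Ltv1, an assembly factor that leaves the small subunit late, had means of 68.5 CPM in fed and 42.5 CPM in fasted wild type and of 45.6 CPM in fed and 65.9 CPM in fasted cKO, a difference of responses of 1.22 ± 0.13. Of 50 other large subunit factors, 28 rose and 8 fell in wild type and 30 rose and 4 fell in cKO, with 5 higher and 2 lower responses. Mak16 rose by 1.02 ± 0.071 in wild type and 1.27 ± 0.072 in cKO, and 39.39% of its exon bases overlap Tti2 on the opposite strand, so its reads are uncertain. Of 18 genes of the exosome and of precursor trimming, 7 rose and 6 fell in wild type and 11 rose and 1 fell in cKO. Exosc6 had a response 1.89 ± 0.31 higher in cKO, but all of its exon bases overlap Aars on the same strand, so its reads cannot be told apart from those of Aars.

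Of 22 genes of RNA polymerase III and its repressor Maf1, 4 rose and 5 fell in wild type and 5 rose and 6 fell in cKO. Of all tested genes, 29.6% rose and 31.3% fell in wild type and 26% and 27% in cKO. Maf1 was lower in fasted cKO than in fasted wild type (-0.68 ± 0.12, adjusted p = 0.000291). Of 25 genes of growth signalling to ribosome synthesis, 7 rose and 9 fell in wild type and 2 rose and 9 fell in cKO. Myc, which activates many ribosome biogenesis genes, had means of 8.19 CPM in fed and 22.6 CPM in fasted wild type and of 15.7 CPM in fed and 14.0 CPM in fasted cKO, and its response was lower in cKO (-1.63 ± 0.26, adjusted p = 5.85e-05). Tsc1, an inhibitor of mTORC1, had means of 33.4 CPM in fed and 58.4 CPM in fasted wild type and of 34.0 and 31.2 CPM in cKO, a difference of responses of -0.93 ± 0.14. Of 12 genes of the 5S particle and the nucleolar stress response through p53, 4 rose and 2 fell in wild type and 6 rose and 2 fell in cKO. Rpl11, whose protein restrains Mdm2, rose by 1.01 ± 0.053 in wild type and 0.77 ± 0.053 in cKO. Cdkn1a, a target of p53, had means of 4.45 CPM in fed and 316 CPM in fasted wild type and of 44.5 and 341 CPM in cKO.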

How the data were processed

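The data were messenger RNA reads from 1000 sorted cells per library, amplified over 15 cycles with a SMART-seq v4 kit, which does not keep strand, per the labels' protocols. The deposited table holds raw read counts per gene, made by the authors with Trimmomatic 0.36, HISAT2 2.1.0 and featureCounts of Subread 1.6.2 on GRCm38, per the submitters' processing notes. Which annotation, strand setting and rule for shared reads were used is "not given in the sources used here". A second deposited table of normalized values was not used, since it holds the same counts scaled per library. The 47 genes and all gene lists were chosen with earlier results of these data known.

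The quasi-likelihood test of edgeR 4.0.16 (R 4.3.3) was run on the counts, scaled by TMM, with 1 model of 4 group means over the 20 libraries. Its filter on low counts (minimum 10, total 15) left 13237 genes, over which Benjamini-Hochberg adjustment was made. Genes with an adjusted p under 0.05 are said to rise or fall. Fold changes in log2 carry ± SE, with n = 5 libraries a group. The interaction is the response to fasting in cKO minus that in wild type. CPM use TMM. On simulated counts with 200 changed genes (fasting in wild type, 13053 genes), 58.6% of 1.5-fold and 81.6% of 2-fold changes were recovered, and 6.12% of the calls were false. In the real counts 60.9% of tested genes were called in that comparison, so these rates need not hold for it. Gene coordinates, lengths, GC content and overlaps are from GENCODE M21 (GRCm38), to which 22063 names (95.4%) and all 47 genes matched.

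Values in every library are given for Ubtf, Polr1a, Npm1, Ncl and Fbl and, per comparison, for up to 6 rises and 6 falls of largest size, 27 genes in all. From each other list up to 3 genes of smallest p per comparison could be named. The settings tried were DESeq2 size factors, upper-quartile normalization, the DESeq2 1.42.0 test, a robust fit, no filter, a minimum of 1 CPM in 5 libraries, only the groups compared, replicate number as a block, GC and length offsets, that block with these offsets, fasted replicates 1 and 2 or 3 to 5 left out, and each library left out.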

Additional observations from a re-analysis of the deposited data

Results flagged for a closer look

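The response to fasting differed between genotypes, by the interaction test of edgeR, for 13 of the 47 genes. It was higher in cKO, on the log2 scale, by 1.02 in Ubtf, 0.74 in Polr1e, 0.66 in Bop1, 0.64 in Rrp9, 0.51 in Taf1a, 0.48 in Wdr75, 0.47 in Dkc1, 0.47 in Nop16, 0.35 in Polr1d, 0.33 in Nop56 and 0.29 in Wdr12. The difference was -0.35 in Gnl3 and -0.22 in Npm1, whose rises were smaller in cKO.

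Of 108 sets of 5 libraries (27 genes in 4 groups), 3 held a library far from the other 4 by Dixon's test, and chance flags about 1 in 20. Rrp9 was lowest in fasted cKO replicate 5, at 15.4 CPM. Npm3 was highest in fed wild-type replicate 5, at 2.25 CPM. Polr1d was highest in fasted cKO replicate 2, at 149 CPM.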

How the results depend on the processing

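For 91 gene and comparison pairs (the 90 calls among the 47 genes and Polr1a on fasting in wild type), 2692 of the values under other settings kept direction and call, 208 lost the call, 11 changed sign and 1 gained the call with its sign kept, and the cause was not tested. Polr1a on fasting in wild type was -0.015 with no filter, -0.026 with the replicate block, -0.379 with fasted replicates 1 and 2 left out (adjusted p = 0.0199, a call gained with a change of sign) and 0.43 with fasted replicates 3 to 5 left out (adjusted p = 0.011), and -0.201 to 0.101 when single libraries were left out. The rise of Taf1a in cKO became -0.022 with GC and length offsets and -0.019 with these and the replicate block. Genes lower in fed cKO (4) numbered 8 with the DESeq2 test, 8 with GC and length offsets, 8 with the replicate block and offsets, and 10 with only the groups compared, with fasted replicates 1 and 2 out or with 3 to 5 out, and 1 was higher with only the groups compared and 1 with replicates 1 and 2 out. Genes higher in fasted cKO (9) numbered 0 with only the groups compared. Genes lower in fasted cKO (1) numbered 4 with upper-quartile normalization, the DESeq2 test or the offsets, 2 with the robust fit, 5 with the replicate block and offsets, 8 with fasted replicates 1 and 2 out and 0 with 3 to 5 out. Genes that fell on fasting in cKO (4) numbered 2 with DESeq2 size factors. Lower responses in cKO (2) numbered 7 with fasted replicates 1 and 2 out and 0 with 3 to 5 out. With fasted replicates 3 to 5 out, the median of the 47 genes was 0.217 in fasted cKO against wild type and 0.284 for the interaction. Single-library omissions gave 18 to 21 rises and 8 to 11 falls on fasting in wild type, 24 to 28 and 2 to 4 in cKO, 0 and 2 to 7 for cKO in fed mice, 6 to 10 and 1 to 4 in fasted mice, and 10 to 13 and 1 to 2 for the interaction. The falls moved by over 1.5 times, in fed cKO to 2 without fed wild-type replicate 1 or 5 and to 7 without fasted wild-type replicate 5. In fasted cKO they moved to 4 without fasted cKO replicate 1, to 3 without fasted wild-type replicate 1 or 2, and to 2 without fasted wild-type replicate 5, fasted cKO replicate 2 or fed cKO replicate 2 or 3. On fasting in cKO they were 2 without fed wild-type replicate 1, 2, 3 or 4, fed cKO replicate 1 or 5, fasted wild-type replicate 5 or fasted cKO replicate 3, and lower responses were 1 without fed wild-type replicate 2, 3 or 5, fed cKO replicate 3, fasted wild-type replicate 3 or fasted cKO replicate 3 or 4. The replicate block gave 20 and 10, 26 and 3, 0 and 4, 9 and 1, and 12 and 2 in the same order. Deviations of libraries with the same number correlated at -0.05 to 0.13, and at 0.02 to 0.13 between fasted wild type and fasted cKO. Whether libraries with the same number share an origin was not tested, and the block moved no count of calls by over 1.5 times. Low counts limit Npm3 and Taf1c most.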
